A study of Mus musculus with 9 samples.

Results

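The insulin-like growth factor (IGF) binding proteins Igfbp1 to Igfbp7, the ligand Igf2 and the receptors Igf1r and Igf2r were measured as liver mRNA in mice that received thioacetamide (TAA) and in mice allowed to recover from it. These 10 genes were picked by gene symbol out of 21873 genes in the deposited mRNA table, and all 10 were among the 14094 genes with enough signal to be tested. The animals were male C57BL/6 mice, 8 weeks old at the first injection, and no transgene or mutation is named for them. The control group (n = 3) was injected intraperitoneally with normal saline for 8 weeks, the TAA group (n = 3) with TAA, a compound that injures hepatocytes, for the same time, and the recovery group (n = 3) with TAA for 8 weeks before 8 weeks without injections. TAA was given at 200 mg/kg every 3 days, and control and TAA livers were taken 72 h after the last injection. The recovery mice were thus 8 weeks older when the liver was taken, and since no controls of this age were analysed here, age and recovery cannot be told apart. Each library holds the whole liver RNA of 1 mouse, in which fewer cells of a type and less RNA per cell cannot be told apart.

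IGF1 and IGF2 are small hormones related to insulin that promote growth through the tyrosine kinase receptor IGF1R. The liver is the main source of circulating IGF1. In blood and tissue the IGFs are held by IGFBP1 to IGFBP6, which bind them tightly and set how much can reach the receptor, whereas IGFBP7 binds them weakly. IGF2R, also the receptor for mannose 6-phosphate, takes up IGF2 for breakdown in lysosomes and does not transmit a growth signal as IGF1R does. In the adult mouse liver, hepatocytes make Igfbp1, Igfbp2, Igfbp4 and Igf1, while sinusoidal and stromal cells are known sources of Igfbp3, Igfbp5, Igfbp6 and Igfbp7.

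Levels are given as FPKM (fragments per kilobase of gene and per M mapped fragments, a unit corrected for gene length) divided by a scaling factor per library. That factor ranged over 0.827 to 0.878 for control mice, 1.29 to 1.38 for TAA mice and 0.893 to 0.907 for recovery mice, and it moved TAA values against control values by -0.64 on the log2 scale. From the steps between low values, each library held an estimated 27.1 to 40.7 M fragments. The summed level of 10 hepatocyte markers was 37818 to 42169 in control mice, 22309 to 29382 in TAA mice and 46888 to 49513 in recovery mice, and no hepatocyte marker was at 0 throughout. Most of this sum was Alb. Without Alb, the other 9 summed to 11059.5 to 11795.7, 4931.46 to 6102.12 and 12849.5 to 13850.5. The library TAA 3 stood apart by skeletal muscle transcripts. Its 10 muscle markers, a list added after the values were seen, summed to 52.5, against 0.160 to 0.506 in the other 8 libraries, so values that rest on TAA 3 are given with and without it.

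Of the 10 genes, 4 passed the criteria of an adjusted p under 0.05 and a fold change of at least 2 under TAA, that is, in TAA mice compared with control mice (limma). Igfbp6 and Igfbp7 rose, where 17.0% of all tested genes rose, and Igfbp2 and Igfbp4 fell, where 8.02% of all tested genes fell. After withdrawal (recovery mice compared with TAA mice), Igfbp2 and Igfbp4 rose and Igfbp6 fell, against 7.12% of all tested genes that rose and 14.3% that fell. None of the 10 passed in recovery mice compared with control mice, where only 0.582% of tested genes rose and 0.412% fell. Igfbp2, Igfbp4 and Igfbp7 had an unadjusted p under 0.05 there (limma), but the share of all tested genes under it was not computed. The median log2 fold change over the 10 genes was 0.55, -0.53 and -0.04 in these comparisons, beside 0.02, -0.01 and 0.01 over all tested genes. The TAA mice enter both of the first comparisons, so the change after withdrawal is not independent of the change under TAA.

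**Figure D1:**
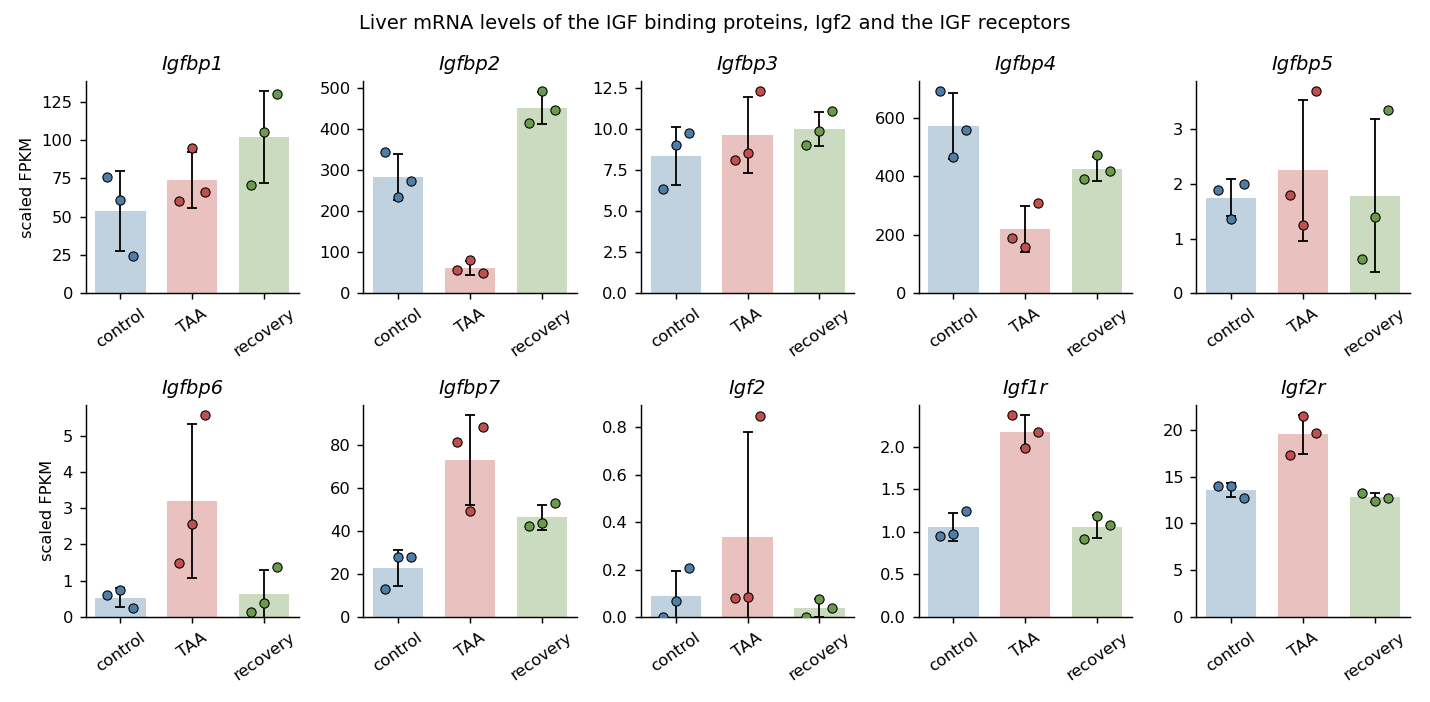
Scaled FPKM of the 10 genes (vertical axes, each starting at 0 with its own range) in the control, TAA and recovery groups. Points are mice, bars are group means and error bars are the SD (n = 3), drawn only above 0. Igfbp2 in the TAA mice, at 49.4 to 81.0, lies under all control and recovery mice, while Igf1r and Igf2r are higher in every TAA mouse than in any other mouse.

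Igfbp2 (ENSMUSG00000039323, chromosome 1 of mm10, 72824503 to 72852474, plus strand) had the largest fall of the 10 genes under TAA and the largest rise after withdrawal, both on the log2 scale. It encodes a binding protein that is abundant in plasma and is secreted by hepatocytes. Its scaled FPKM was 345, 234 and 275 in the control mice, 56.9, 81.0 and 49.4 in the TAA mice and 417, 493 and 448 in the recovery mice. Every TAA mouse was therefore under every other mouse, and every recovery mouse was over every control mouse. Under TAA its log2 fold change was -2.20 (standard error 0.21, adjusted p = 1.18e-04, limma), a mean 4.56-fold lower level. After withdrawal it was 2.89 (standard error 0.18, adjusted p = 2.07e-05, limma), a mean 7.25-fold higher level. The recovery mean of 453 ± 38.5 (SD, n = 3) was 1.59-fold the control mean of 285 ± 56.0, with a log2 fold change of 0.68 (95% interval 0.32 to 1.05) that missed the threshold at an adjusted p of 0.0691 (limma). Both called changes of Igfbp2 kept their call under every alternative of scaling, filter, pseudocount and test and without any 1 mouse.

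Igfbp4 (ENSMUSG00000017493, chromosome 11, 99041244 to 99054392, plus strand) was the most abundant of the 10 mRNAs in the control livers. Its protein binds IGF1 and IGF2 and holds them back from the receptor until a protease cleaves it. The control mice had 691, 466 and 560, the TAA mice 190, 159 and 308 and the recovery mice 391, 471 and 417. The TAA group lay under both other groups without overlap, and only 1 recovery mouse reached into the control range. Its log2 fold change was -1.43 (standard error 0.26, adjusted p = 0.00250, limma) under TAA and 1.02 (standard error 0.23, adjusted p = 0.00744, limma) after withdrawal. The recovery mean was 426 ± 41.0. Between the group means of the log2 values, 28.8% of the gap from control to TAA remained in recovery mice. The log2 fold change of the recovery group against the control group was -0.41 (adjusted p = 0.190, limma). These Igfbp4 calls depended on the scaling. With FPKM as deposited the log2 fold change was -0.79 and then 0.46, and with quantile normalization -0.26 and then -0.03, none of which passed the criteria.

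Igfbp2 and Igfbp4 also differed from each other in a ratio that a single scaling factor per library leaves as it is, which quantile normalization does not. The ratio of Igfbp2 to Igfbp4, chosen after the values were seen, was 0.499, 0.503 and 0.492 in the control mice and 1.07, 1.05 and 1.08 in the recovery mice. In the TAA mice it was 0.300, 0.511 and 0.160. The control and recovery groups did not overlap (two-sided exact permutation p = 0.1, the smallest that 3 against 3 mice can give), and the TAA group spread over the control values (exact permutation p = 0.4). Igfbp2 thus ranked below Igfbp4 in each of the 6 control and TAA mice and above it in each of the 3 recovery mice.

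Igfbp1 and Igfbp3, the other binding proteins best known from blood, did not pass the test in any comparison. Igfbp1, which hepatocytes make when insulin is low, had 75.6, 61.0 and 24.4 in the control mice, 60.4, 94.6 and 66.0 in the TAA mice and 70.5, 105 and 130 in the recovery mice. All 3 groups overlapped, and the control mice alone spanned a range of 24.4 to 75.6. Under TAA, Igfbp1 had a log2 fold change of 0.58 (95% interval -0.35 to 1.51, adjusted p = 0.254, limma), and 1.03 (95% interval -0.03 to 2.09, adjusted p = 0.228, limma) in recovery mice against control mice. With FPKM as deposited and with quantile normalization, Igfbp1 passed the criteria in the TAA group, at log2 fold changes of 1.22 and 1.19. Igfbp3, the carrier that joins IGF1 and the acid-labile subunit in blood, had group means of 8.35 ± 1.79, 9.64 ± 2.31 and 9.99 ± 1.02 (SD, n = 3). Its log2 fold change under TAA was 0.20 (95% interval -0.29 to 0.69, limma), so that a change of 2-fold lay outside the interval under this scaling. Its FPKM as deposited was 5.24, 7.69 and 8.55 in the control mice and 10.4, 11.3 and 16.9 in the TAA mice, which did not overlap.

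Igfbp1 and Igfbp3 are neighbours on chromosome 11, facing each other across 3539 bases, and Igfbp2 and Igfbp5 face each other across 5457 bases on chromosome 1. Igfbp5, which binds to extracellular matrix, had 1.89, 1.37 and 2.0 in the control mice, 1.81, 1.25 and 3.70 in the TAA mice and 0.627, 1.39 and 3.35 in the recovery mice, with overlap of all groups. Its log2 fold change under TAA was 0.22 (95% interval -0.62 to 1.07, limma) and -0.19 without TAA 3, the mouse with the highest value.

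Igfbp6 (ENSMUSG00000023046, chromosome 15, 102144362 to 102149511, plus strand), whose protein prefers IGF2 over IGF1, was low but rose in the TAA group. Its scaled FPKM was 0.609, 0.754 and 0.251 in the control mice, 1.48, 2.55 and 5.57 in the TAA mice and 0.143, 0.374 and 1.38 in the recovery mice. Each TAA mouse was above every control and recovery mouse, although recovery mouse 3 came close to the lowest TAA mouse. These levels correspond to an estimated 8.09 to 25.6 fragments per control library, 85.9 to 330 per TAA library and 4.99 to 56.4 per recovery library. Igfbp6 had a log2 fold change of 2.27 (standard error 0.50, adjusted p = 0.00668, limma) under TAA and 1.78 without TAA 3 (adjusted p = 0.0196, limma). After withdrawal it was -2.38 (standard error 0.68, adjusted p = 0.0210, limma), and this call was lost without TAA mouse 2, TAA mouse 3, recovery mouse 1 or recovery mouse 2, at adjusted p of 0.0502, 0.0819, 0.0568 and 0.0628 (limma). The recovery mean of 0.632 ± 0.657 did not differ from the control mean of 0.538 ± 0.259 beyond the spread of the mice (log2 fold change -0.11, 95% interval -1.74 to 1.53, limma).

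Igfbp7 (ENSMUSG00000036256, chromosome 5, 77349240 to 77408041, minus strand), a secreted protein of vessel walls and stroma, rose under TAA, and its recovery mean lay between the control and TAA means. The control mice had 13.1, 27.7 and 27.7, the TAA mice 81.4, 49.3 and 88.6 and the recovery mice 42.2, 44.0 and 53.2. The recovery mice were above all control mice, and recovery mouse 3 was above TAA mouse 2. It differed under TAA by a log2 fold change of 1.71 (standard error 0.33, adjusted p = 0.00368, limma), a mean 3.20-fold higher level. Between the group means of the log2 values, 64.0% of the gap from control to TAA remained in recovery mice, the largest share among the 4 genes called under TAA. After withdrawal the log2 fold change was -0.62 (adjusted p = 0.0451, limma), short of 2-fold, and it was 1.09 (95% interval 0.38 to 1.80, adjusted p = 0.10, limma) in recovery mice against control mice. With FPKM as deposited and with quantile normalization, the fall after withdrawal passed the criteria at -1.18 in both. The 3 control mice were not alike, since control 1 had the lowest Igfbp7 together with the lowest sums of endothelial markers (67.2, against 113 and 109 in the other control mice) and macrophage markers (50.9, against 115 and 120). Without control 1, the log2 fold change of Igfbp7 was 1.35 under TAA and 0.74 in the recovery group against the control group. An exon stretch of 85 bases (7.03% of the exon bases of Igfbp7) overlaps Polr2b on the other strand, and whether counting used strand is not given in the sources used here.

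**Figure D2:**
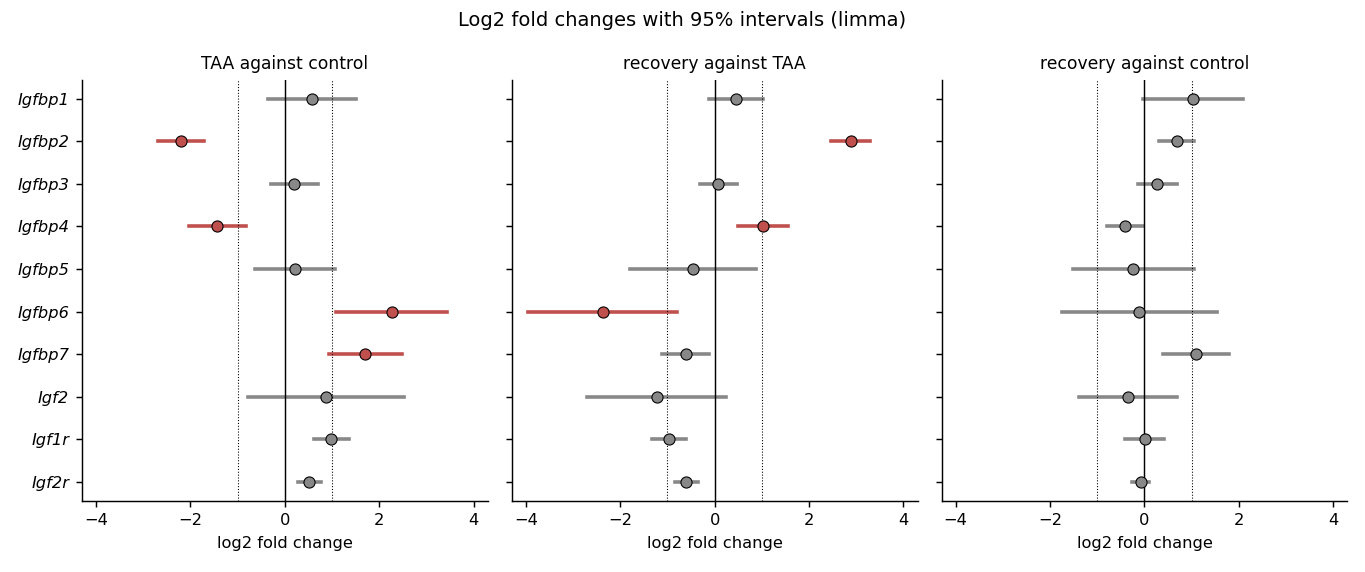
Log2 fold change (horizontal axis) of the 10 genes with its 95% interval from limma in the 3 comparisons. Red marks the genes that passed an adjusted p under 0.05 and a fold change of at least 2, and dotted lines mark 2-fold. Igfbp2 is at -2.20 and then 2.89, both intervals lying beyond 2-fold, whereas the interval of Igfbp4 crosses 2-fold in both.

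The promoters of the 4 called genes and of Igfbp1, whose insulin-responsive promoter is well known, are shown because Igfbp2 and Igfbp4 moved one way under TAA and Igfbp6 and Igfbp7 the other. Windows of 250 bases before and 50 after each start were taken from RefSeq (GRCm38.p6), in which all 10 genes were matched. The 150 bases before the first start are printed 5′ to 3′ on the strand of the gene. Capitals mark GGGCGG (the GC box, bound by Sp1-type factors) for Igfbp2 and Igfbp7, TATAAA (the TATA box) for Igfbp4 and Igfbp6, and CAAAACA (the core of the insulin response sequence) for Igfbp1, on either strand. The stretches are chr1:72824330-72824479 (plus strand), chr11:99041094-99041243 (plus), chr15:102144036-102144185 (plus), chr5:77408046-77408195 (minus) and chr11:7197637-7197786 (plus).
Igfbp2: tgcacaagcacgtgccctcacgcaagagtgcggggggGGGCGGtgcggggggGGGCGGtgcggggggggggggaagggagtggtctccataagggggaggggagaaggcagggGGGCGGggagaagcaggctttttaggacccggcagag
Igfbp4: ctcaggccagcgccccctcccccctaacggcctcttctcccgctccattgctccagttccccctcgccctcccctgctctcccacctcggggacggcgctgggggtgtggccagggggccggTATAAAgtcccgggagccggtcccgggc
Igfbp6: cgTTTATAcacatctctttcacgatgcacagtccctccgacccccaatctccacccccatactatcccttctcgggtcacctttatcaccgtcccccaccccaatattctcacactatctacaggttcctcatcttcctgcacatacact
Igfbp7: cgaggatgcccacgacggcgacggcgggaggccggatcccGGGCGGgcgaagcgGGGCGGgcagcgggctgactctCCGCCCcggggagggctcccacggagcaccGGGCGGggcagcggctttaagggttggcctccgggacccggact
Igfbp1: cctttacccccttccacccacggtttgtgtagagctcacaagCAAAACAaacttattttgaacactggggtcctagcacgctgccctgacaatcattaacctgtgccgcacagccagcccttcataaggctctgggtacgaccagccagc

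Igfbp2 and Igfbp7, which moved in opposite directions, both held GC boxes, at -113, -98 and -37 bases from the start for Igfbp2 and at -110, -96, -74 and -44 for Igfbp7 (the left end of each match). A GC box was found in 35.7% of the 32851 promoter windows of the genome. Igfbp4 had a TATA box at -28, the usual distance from a start, and the match in Igfbp6, on the other strand, began at -148. The windows of Igfbp6 and Igf1r, ending at 102144235 and 67952306, lie before the gene starts given here, 102144362 and 67952827. Their positions and GC content thus refer to another start, that of RefSeq. A TATA box was in 13.6% of windows. The insulin response core of Igfbp1 began at -108, and 6.28% of windows held this word, while none of the other 9 genes did. The GC content of the windows was 67.0% for Igfbp2, 71.3% for Igfbp4, 49.7% for Igfbp6 and 73.3% for Igfbp7, beside a median of 52.7% over all windows. TGTTTAC (a forkhead site), TGANTCA (AP-1) and TTCNNNGAA (STAT) were searched as well, and 3.65%, 7.81% and 8.3% of windows held them. None was in the first window of any of the 10 genes. Neither the 2 genes that fell nor the 2 that rose shared a motif of this search that the other pair lacked. A match of letters says nothing of whether a factor was bound in these livers.

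Summed over Igfbp1 to Igfbp7, the binding protein mRNA was 1134, 801 and 899 scaled FPKM in the control mice, 400, 396 and 534 in the TAA mice and 930, 1126 and 1064 in the recovery mice. The TAA sum lay under both other groups without overlap (exact permutation p = 0.1 for each, the smallest possible). With FPKM as deposited the sum was 937, 685 and 790 in the control mice and 515, 523 and 735 in the TAA mice, which overlapped (exact permutation p = 0.2). The shares of the sum, which a single factor per library leaves as they are, were computed for genes chosen after their values were seen and are given with no test. Igfbp2 and Igfbp4 together made up 90.6% ± 2.76 of it in control mice, 63.1% ± 3.45 in TAA mice and 84.6% ± 2.92 in recovery mice (SD, n = 3), and Igfbp7 made up 2.57% ± 1.23, 16.5% ± 3.97 and 4.48% ± 0.548. Neither share overlapped between any of the groups.

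**Figure D3:**
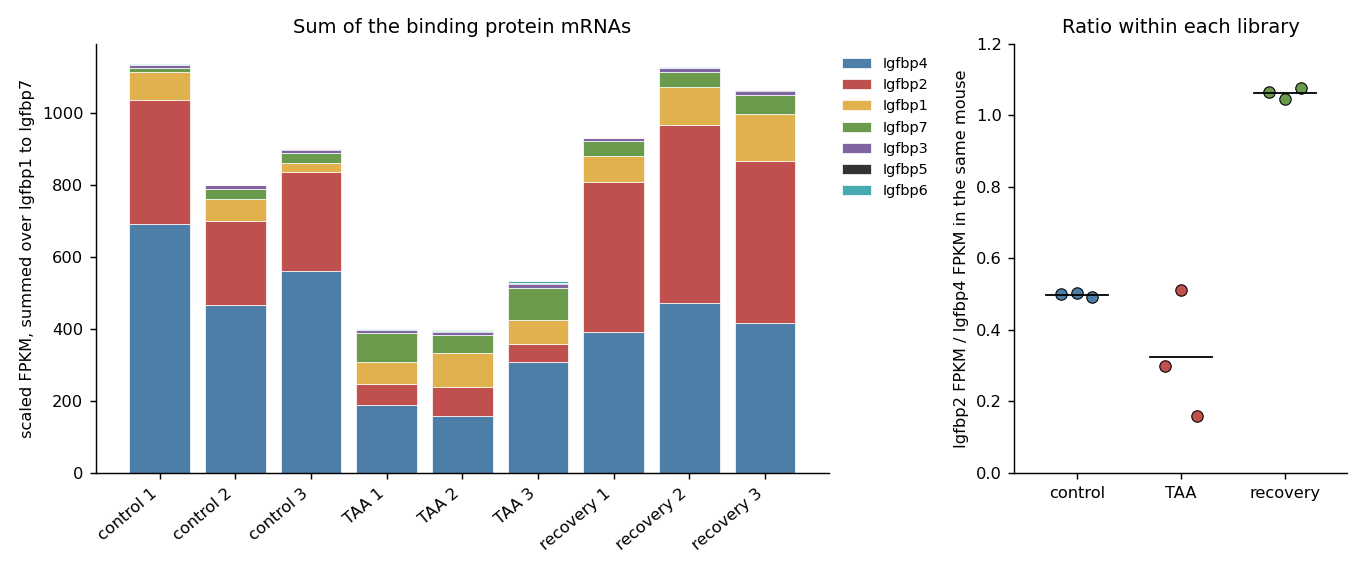
Left, scaled FPKM of the 7 binding proteins stacked for each of the 9 mice (vertical axis). Right, the ratio of Igfbp2 to Igfbp4 FPKM within each mouse, with a line at the group mean. The TAA stacks reach 396 to 534, under the 801 to 1134 of the control mice, and the ratio is near 0.498 in the control mice and near 1.06 in the recovery mice.

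The order of the levels changed with the groups. In the control group it ran Igfbp4, Igfbp2, Igfbp1, Igfbp7, Igf2r, Igfbp3, Igfbp5, Igf1r, Igfbp6 and Igf2, and only Igfbp1 and Igfbp7, and Igfbp7 and Igf2r, overlapped as neighbours. In the TAA group Igfbp4 was followed by Igfbp1, Igfbp7 and Igfbp2, which overlapped as neighbours at means of 73.7, 73.1 and 62.4, and Igfbp6 stood above Igfbp5 and Igf1r, with overlap. In the recovery group Igfbp2 and Igfbp4 led with overlapping values, and the rest followed in the control order.

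Igf2 (ENSMUSG00000048583, chromosome 7, 142650766 to 142666816, minus strand), the imprinted fetal ligand that the adult mouse liver hardly expresses, stayed near the floor. Its scaled FPKM was 0, 0.0674 and 0.205 in the control mice, 0.0789, 0.0849 and 0.848 in the TAA mice and 0, 0.0766 and 0.0383 in the recovery mice. Only TAA 3, the library with muscle transcripts, stood out, with an estimated 259 fragments against at most 34.0 in any other library. Its log2 fold change under TAA was 0.87 (95% interval -0.77 to 2.52, adjusted p = 0.327, limma), and 0.08 without TAA 3. Of the exon bases of Igf2, 62.8% are shared with Gm49394, a gene on the same strand whose level in TAA 3 was 0. How reads in the shared bases were counted is not given in the sources used here.

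Both receptors were higher in the TAA group than in every other mouse, but by less than 2-fold on the log2 scale used. Igf1r (ENSMUSG00000005533, chromosome 7, 67952827 to 68233668, plus strand) had 0.956, 0.977 and 1.24 in the control mice, 2.38, 1.99 and 2.17 in the TAA mice and 0.918, 1.19 and 1.08 in the recovery mice. The TAA mice were a clear step above both other groups, which overlapped each other. Igf1r thus had a log2 fold change of 0.98 (95% interval 0.61 to 1.35, adjusted p = 0.00156, limma) and then -0.97 (95% interval -1.33 to -0.61, adjusted p = 0.00140, limma), just short of the criterion of 2-fold, although the ratio of the mean levels was 2.06. With a pseudocount of 0.01 in place of 0.1 these were 1.04 and -1.03 and passed, as they did with FPKM as deposited, at 1.58 and -1.50, whereas quantile normalization gave 0.54 and -0.62. The recovery and control groups had a mean of 1.06 each (log2 fold change 0.01, 95% interval -0.41 to 0.42, limma).

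Igf2r (ENSMUSG00000023830, chromosome 17, 12682406 to 12769664, minus strand) was 10.2 to 14.6 times as abundant as Igf1r, per gene length, in the control mice. Its scaled FPKM was 14, 14 and 12.7 in the control mice, 17.3, 21.5 and 19.7 in the TAA mice and 13.2, 12.3 and 12.7 in the recovery mice. The TAA mice did not overlap with the other groups. Igf2r had a log2 fold change of 0.52 (standard error 0.10, adjusted p = 0.00440, limma) and then -0.60 (standard error 0.10, adjusted p = 0.00201, limma), with a mean 1.44-fold the control level under TAA. It passed 2-fold only with FPKM as deposited, at 1.15 and -1.16. The ratio of Igf2r to Igf1r, which a single factor per library leaves as it is, was 13.0 ± 2.45 in control mice, 9.05 ± 1.76 in TAA mice and 12.2 ± 2.07 in recovery mice (SD, n = 3), and the groups overlapped (exact permutation p = 0.2 for the TAA group against each other group).

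Counted by overlap, 6 of the 10 genes had no overlap between the TAA and control mice, 4 higher and 2 lower, beside 63.6% of all tested genes. Between the recovery and TAA mice it was also 6 of 10, 2 higher and 4 lower, beside 60.3%. The 4 included Igf2, near the floor, with 0.0766 as the highest recovery value and 0.0789 as the lowest TAA value. Between the recovery and control mice it was 2 of 10 (Igfbp2 and Igfbp7, both higher), beside 30.2%. The 10 genes therefore separated the groups about as often as the tested genes as a whole.

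Other genes of the IGF pathway were taken from a list of 37, of which 35 were in the table and 29 were tested. In the TAA group 7 rose, 5 fell and 17 did not pass, beside 17.0% of all tested genes that rose and 8.02% that fell. The median log2 fold change of the list was -0.22, beside 0.02 over all tested genes. After withdrawal 3 rose, 7 fell and 19 did not pass, beside 7.12% of all tested genes that rose and 14.3% that fell. None of the 29 passed in recovery mice against control mice, where 0.582% of all tested genes rose and 0.412% fell. An unadjusted p under 0.05 was found for 8 of the 29 in that comparison (limma), but the share of all tested genes under it was not computed. Igfbpl1, the proteases Pappa and Pappa2, Stc1, Insrr and Igf2bp1 were too low to test. The split depended on the scaling, with 10 higher and 1 lower under TAA for FPKM as deposited and 5 higher and 2 lower with quantile normalization, and on the pseudocount. With a pseudocount of 1 in place of 0.1, 4 were higher and 5 lower under TAA, and 3 were higher and 3 lower after withdrawal.

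Igf1, Igfals, Ghr, Insr and Irs2 were the 5 genes that fell under TAA. Igf1, the growth hormone-driven ligand, had a mean of 159 ± 12.3 in control mice, 59.9 ± 7.22 in TAA mice and 155 ± 11 in recovery mice (SD, n = 3). Its log2 fold change was -1.41 and then 1.37 (adjusted p = 5.57e-05 and 6.02e-05, limma), which came to -0.77 and 0.81 with FPKM as deposited and so lost the call. Igfals, the acid-labile subunit of the ternary complex, fell by 1.65 on the log2 scale (adjusted p = 0.00688, limma) and had 0.70 after withdrawal, short of 2-fold. The growth hormone receptor Ghr (log2 fold change -1.47), the insulin receptor Insr (-1.09) and the insulin receptor substrate Irs2 (-1.29) fell as well, and all of these but Igfals lost the call with FPKM as deposited, at -0.84, -0.46 and -0.66 for these 3. With quantile normalization the calls of Igf1, Ghr and Insr were lost. After withdrawal Igf1, Irs2 (1.36) and Ghr (1.04) rose, and with FPKM as deposited none of the 3 did.

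Htra1, Stc2, Grb10, Igf2bp3, Dlk1, Plagl1 and Mest were the 7 genes that rose under TAA. Htra1, a secreted protease that cleaves IGFBPs, had a log2 fold change of 2.30 and then -1.40, and Stc2, which inhibits the protease PAPP-A, had 1.21 and then -1.07. Stc2 was low, at a mean of 0.248 scaled FPKM in the TAA group, and its calls were lost with quantile normalization. The low genes Stc2, Igf2bp3 and Dlk1 lost their calls in both comparisons with a pseudocount of 1, at 0.25, 0.24 and 0.37 under TAA, and so did Htra1 after withdrawal, at -0.98. Without TAA 3 the calls after withdrawal of Htra1 (-1.22), Stc2 (-0.97) and Ghr (0.99) were lost. Grb10, an imprinted adaptor that binds IGF1R and the insulin receptor and restrains growth, had 1.07, 1.01 and 1.06 in the control mice, 6.77, 5.60 and 5.30 in the TAA mice and 1.14, 1.09 and 1.01 in the recovery mice. Every TAA mouse was at or above 5.30 and every other mouse at or below 1.14, and the log2 fold change was 2.38 and then -2.34 (adjusted p = 1.41e-05 and 1.75e-05, limma).

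The imprinted fetal growth genes Plagl1 and Mest also rose and then fell, with log2 fold changes of 2.77 and 2.09 under TAA and -2.69 and -2.10 after withdrawal, and passed the criteria in both comparisons under each of the 3 scalings. Dlk1, another gene of this list, was listed at 0 in all control mice and had 0.151, 0.351 and 0.374 in the TAA mice. Igf2bp3, a fetal protein that binds Igf2 mRNA, had 1.29 and then -1.52, and lost both calls with quantile normalization. The imprinted gene Igf2 itself did not pass the test.

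**Figure D4:**
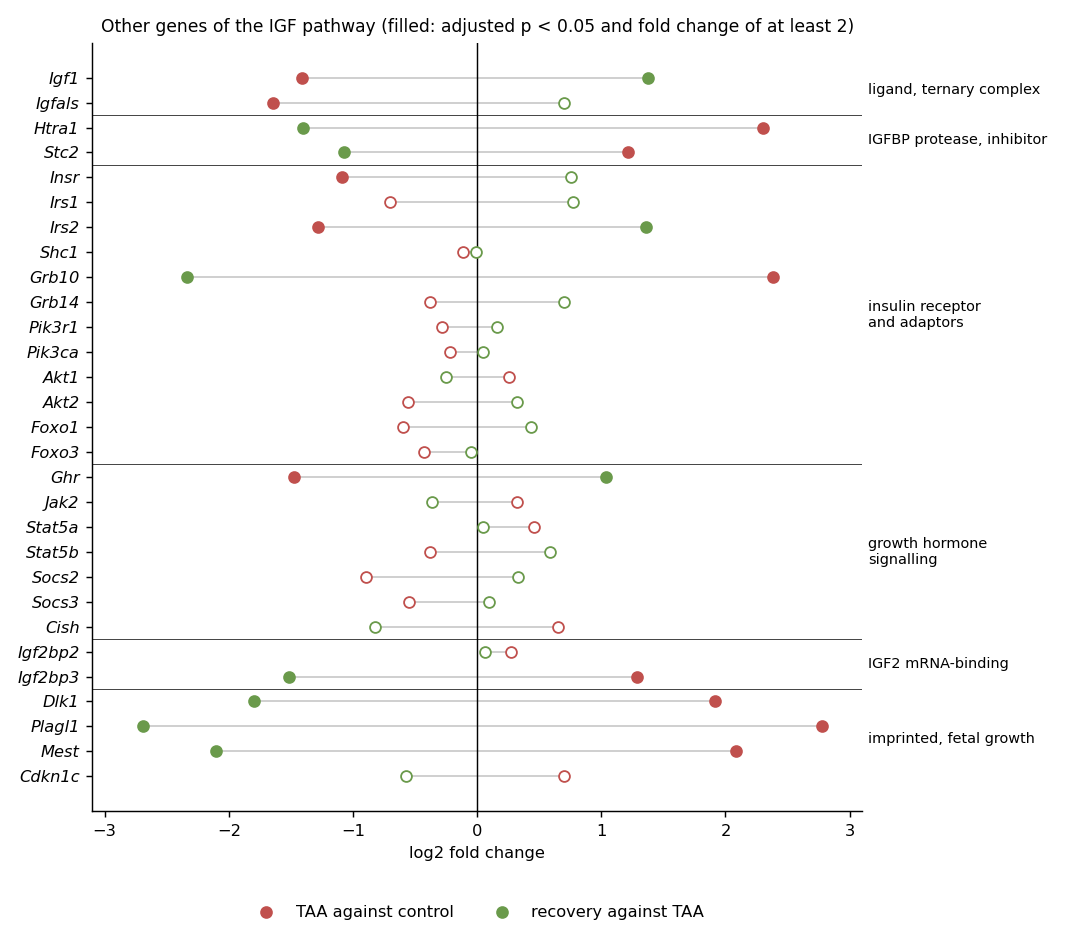
Log2 fold changes (horizontal axis) of the 29 tested pathway genes for TAA mice against control mice (red) and for recovery mice against TAA mice (green), ordered by role. Filled points passed the criteria. Igf1, Ghr and Irs2 are filled at -1.41, -1.47 and -1.29 under TAA and on the other side after withdrawal, and Grb10, Plagl1 and Mest are filled at 2.38, 2.77 and 2.09 and return.

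Markers of cell types moved with several of these genes. The counts below stand beside 17.0% of all tested genes that rose and 8.02% that fell under TAA. After withdrawal these shares were 7.12% and 14.3%. Hepatocyte markers fell for 6 of 10 under TAA, as did Igfbp2 and Igfbp4, and 6 of 10 rose after withdrawal. Stellate cell markers rose for 8 of 10 (sums of 79.5 to 129 in control, 301 to 386 in TAA and 108 to 146 in recovery mice), cholangiocyte markers for 7 of 8 (18.6 to 25, 308 to 454 and 33.1 to 44.1, mostly Spp1) and portal fibroblast and mesothelial markers for 4 of 6 (3.32 to 3.99, 7.12 to 12.1 and 3.29 to 5.58), as did Igfbp6 and Igfbp7. Endothelial markers rose for 1 of 10 (67.2 to 113, 79.9 to 108 and 107 to 119) and macrophage markers for 3 of 8 (50.9 to 120, 105 to 117 and 134 to 186). Without Spp1, the other 7 cholangiocyte markers summed to 4.87 to 7.02, 30.8 to 38.5 and 9.44 to 12.4. Without Dcn, the other 9 stellate cell markers summed to 36.8 to 44.7, 212 to 274 and 35.8 to 48.1. No marker of these lists was at 0 in all libraries. The hepatocyte counts depended on the scaling as Igfbp4 did. Under TAA, 1 of 10 was lower with FPKM as deposited (median of the list -0.54). With quantile normalization none was lower and 1 was higher (median -0.11). After withdrawal, 2 of 10 were higher with FPKM as deposited (median 0.48) and none with quantile normalization (median 0.11). The stellate cell and cholangiocyte counts stayed at 8 to 10 of 10 and 7 to 8 of 8 higher over the 3 scalings, and the portal fibroblast and mesothelial count went from 1 of 6 with quantile normalization to 6 of 6 with FPKM as deposited. The portal fibroblast and mesothelial sum was highest in TAA 3 among the TAA mice and in recovery 3 among the recovery mice, the mice with the highest Igfbp5 and Igfbp6 in their groups. Among the control mice it was highest in control 3 (3.99), which had the highest Igfbp5 but the lowest Igfbp6 (0.251). TAA 1 had a higher sum than TAA 2 (10.4 against 7.12) but a lower Igfbp6 (1.48 against 2.55). The part of cell type shares in the changes of Igfbp2, Igfbp4, Igfbp6 and Igfbp7 was not tested.

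Igfbp1 is known to respond to feeding, and fasting and clock genes were therefore read beside the IGFBPs. Genes of the fasting response in hepatocytes summed to 4563 to 5243 in control mice, 988 to 1088 in TAA mice and 3911 to 4282 in recovery mice. Of these 10 genes, 6 were lower under TAA and 7 higher after withdrawal, beside 8.02% and 7.12% of all tested genes. Under TAA 1 was higher, beside 17.0% of all tested genes, namely Pdk4 at a log2 fold change of 2.33. Pdk4 was also the 1 gene of the list that was higher in recovery against control mice, at 2.42. With FPKM as deposited 5 were lower under TAA and 5 higher after withdrawal, and with quantile normalization 4 and 4. Clock genes summed to 238 to 263, 138 to 155 and 106 to 129, a sum that mixes genes moving in opposite directions. In recovery mice against control mice 2 of 12 rose and 5 fell, beside 0.582% and 0.412% of all tested genes. Arntl and Npas2 rose, at log2 fold changes of 2.90 and 3.03. Dbp (-3.21), Ciart (-2.78), Per3 (-2.24), Tef (-1.57) and Nr1d2 (-1.09) fell. The part of these in the IGFBP values, Igfbp1 in particular, was not tested.

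The genes whose levels over the 9 libraries were most like those of the 3 genes with the largest change under TAA were named by Pearson's r of the log2 values, as a description. For Igfbp6 these were Tmtc1 (r = 0.959), Acta2 (0.957), the smooth muscle actin of activated stellate cells, and Cpe (0.957). For Igfbp2 they were Bsdc1 (0.989), Meig1 (0.989) and Alg5 (0.988), and for Igfbp7 Eva1b (0.986), Pmp22 (0.984) and Fbxo6 (0.982). All points share the 3 groups, so a gene that differs between the groups in the same way has a high r.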

How the data were processed

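Liver mRNA of 9 mice was sequenced by the authors on the Illumina NovaSeq platform after NEBNext Ultra library preparation. Per the submitters' processing notes, reads were mapped to mm10 with HISAT2 2.2.1 and counted with featureCounts 1.5.0-p3, and the authors deposited the counts standardized as FPKM. In genes with 1 transcript, 51.4% to 58.7% of low values per library were whole fragment numbers (tolerance 0.08), so exact counts were not recovered, the fragment numbers given are estimates, and no count model was used.

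Each library was scaled by its median-of-ratios factor, computed from the 14005 genes with FPKM above 0 in all libraries. Groups, taken from the sample labels, were compared with limma 3.58.1 (R 4.3.3, moderated test with a mean-variance trend) on log2(scaled FPKM + 0.1). Tested genes had an average of 0.1 FPKM or more. The fits used the 6 libraries of each comparison, with Benjamini-Hochberg adjustment over all 14094 genes. A gene passed, rose or fell at an adjusted p under 0.05 and a fold change of at least 2. On this scale the added 0.1 understates the fold changes of low genes. Sums and ratios were compared by two-sided exact permutation tests, and levels are mean ± SD over mice. Single genes in fixed lists were named freely, with the 3 most alike genes for each of the 3 members changed most under TAA. The members and lists were chosen with earlier results of these data known. Tables and promoters were handled in pandas 2.3.3 and numpy 2.4.6 (Python 3.11.15), and figures drawn with matplotlib 3.10.9. The small RNA libraries were not analysed here.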

Additional observations from a re-analysis of the deposited data

How the results depend on the processing

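Over 16 alternatives per comparison (10 of processing and 6 that leave out 1 mouse), 425 of 477 values of single members kept their direction and their side of the criteria. Igf2 could not be tested at a mean FPKM of at least 1. The count of members called under TAA, 4, became 6 (5 higher and 1 lower, in place of 2 and 2) with FPKM as deposited and 1 with treat, limma's test for changes beyond 2-fold, and ranged from 4 to 5 without 1 mouse. After withdrawal the count of 3 became 5 with FPKM as deposited and 1 with treat, and ranged from 2 to 3. In the recovery group against the control group it was 0 in each. Igfbp2 was the gene that remained called with treat in both. Over all genes, 2389 rose and 1131 fell under TAA, against 4382 and 421 with FPKM as deposited, 890 and 890 with a pseudocount of 1, 1534 and 1355 with quantile normalization, 1176 and 1028 with a mean FPKM of at least 1, and 941 and 500 with treat. After withdrawal 1003 rose and 2014 fell, against 749 and 711 with a pseudocount of 1, 920 and 975 with a mean FPKM of at least 1, 409 and 3728 with FPKM as deposited, 1198 and 1379 with quantile normalization, and 401 and 683 with treat. In recovery against control mice 82 rose and 58 fell, against 40 and 40 with a pseudocount of 1, 151 and 84 with all 9 libraries fitted at once, 49 and 36 without a trend, 0 and 0 with treat, and as few as 15 and 17 without recovery mouse 2. The median log2 fold change of all genes was 0.63 under TAA and -0.55 after withdrawal with FPKM as deposited.

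Directions turned only for values that had not passed, except Igfbp4. With quantile normalization, Igfbp5 under TAA was -0.15, Igfbp1, Igfbp3 and Igfbp4 after withdrawal were -0.17, -0.059 and -0.028, and Igf1r in recovery against control mice was -0.079. With FPKM as deposited, Igfbp1 and Igfbp3 after withdrawal were -0.11 and -0.48. With a pseudocount of 1, Igfbp6 in the recovery group against the control group was 0.027. Without 1 mouse, Igfbp5 ranged from -0.19 to 0.56 under TAA, from -1.04 to 0.084 after withdrawal and from -0.81 to 0.31 against the control group, and Igfbp3 after withdrawal from -0.041 to 0.26. In the recovery group against the control group, Igfbp6 ranged from -0.82 to 0.49, Igf1r from -0.072 to 0.12 and Igf2 from -0.75 to 0.058. Igfbp4 after withdrawal ranged from 0.81 to 1.29 and lost its call without TAA mouse 1, TAA mouse 2 or recovery mouse 2. The cause of these changes was not tested.

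With the replicate number as a block, 4, 3 and 0 members were called, as without it. The labels name nothing that same-numbered mice share beyond the number. Correlations of their deviations from the group means were -0.0705 to 0.125, beside -0.113 to 0.133 for differently numbered mice of different groups. In the recovery group against the control group, this replicate block left 9 genes higher and 8 lower, against 82 and 58. At 3 mice per group, the 95% intervals of Igfbp1, Igfbp4, Igfbp5, Igfbp6, Igfbp7 and Igf2 in TAA against control mice spanned more than 2-fold, and Igfbp6 and Igf2 rested on at most 56.4 estimated fragments in each control and recovery library.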
